A study of Mus musculus with 4 samples.

Results

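The Ly6 genes encode small surface proteins with a single cysteine-rich, three-finger domain, most of them held in the membrane by a glycosylphosphatidylinositol (GPI) anchor. In mouse immunology they serve as sorting markers, with Ly6C separating inflammatory from patrolling monocytes, Ly6G marking neutrophils and Ly6A, also called Sca-1, marking stem and progenitor cells as well as activated lymphocytes and some endothelium. Several of them are known to respond to interferons, and the monocytes that seed tumors lose Ly6C as they mature into macrophages.

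The 6 genes described here are Ly6e, Ly6a, Ly6c2, Ly6i, Ly6c1 and Ly6g, found by symbol through the Entrez identifier among the 16739 genes with a value in any library. They were chosen by symbol with the genotype differences and levels of the same 4 libraries already known, so their differences between genotypes are given as a description, without a p-value. The RNA came from tumor-associated macrophages (TAMs), sorted as CD45+CD11b+F4/80+ cells from subcutaneous tumors of B16-F10, a melanoma line of the C57BL/6 strain. There were 2 WT mice and 2 mice labelled Trim24-deficient, all of C57BL/6 background, injected with tumor cells at 6 to 8 weeks of age and killed 16 days later. The labels give the genotype of the second group as Trim24-/-, and the study describes it as Trim24 flox/flox LysM-Cre, in which LysM-Cre removes the floxed Trim24 gene in myeloid cells only, so that tumor cells and lymphocytes keep it. Trim24 itself encodes an E3 ubiquitin ligase and reader of modified histones, and the comparison of the genotypes asks what its loss in myeloid cells does to the transcriptome of TAMs. An exact permutation test of 2 against 2 mice cannot go below a two-sided p of 0.333, so the adjusted p-values given below depend on a spread pooled by edgeR over many genes.

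The libraries held 4476122 to 5172407 expected counts. Trim24 transcript did not separate the groups, at 28.8 and 10.2 expected counts in WT replicates 1 and 2 against 16.1 and 2 in the deficient replicates 1 and 2 (log2 fold change -1.06, standard error 0.82, adjusted p = 0.635). The mutant libraries are therefore called the libraries labelled Trim24-deficient, or deficient libraries for short. The X-linked Xist stood at 6.51 to 10.9 CPM (normalized counts, scaled to a common library total) in the WT libraries and at 256 to 437 CPM in the deficient ones, and the Y-linked Ddx3y at 73.6 to 102.3 CPM against 0.411 to 0.426 CPM, and all 5 sex-linked genes listed were called, so the genotype and the sex of the mice cannot be told apart in any difference given below. The sorted population carried the macrophage markers, with all 13 genes of that list passing the filter on low counts and the complement gene C1qb at 4580 to 6476 CPM in all 4 libraries.

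The family lies in a cluster on chromosome 15, within 204104 bases of the GRCm38 annotation. On that build Ly6e occupies chr15:74955051-74959905 on the plus strand, Ly6i chr15:74979534-74983430 on the minus strand, Ly6a chr15:74994877-74998031 on the minus strand, Ly6c1 chr15:75044018-75048830 on the minus strand, Ly6c2 chr15:75108158-75111970 on the minus strand and Ly6g chr15:75155240-75159126 on the plus strand. Copies of this kind share sequence, and this bears on how reads can be assigned to them. The coding sequences of Ly6c1 and Ly6c2, which together make up the Ly6C antigen, are both 396 bases long with the stop codon and were 97.7% identical. They are shown because copies so alike in sequence differed 86.3 to 147 times in transcript level. The stretch from base 1 to base 300 of each is printed, and capitals mark the 7 of all 9 differing positions that fall in it.

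Ly6c1: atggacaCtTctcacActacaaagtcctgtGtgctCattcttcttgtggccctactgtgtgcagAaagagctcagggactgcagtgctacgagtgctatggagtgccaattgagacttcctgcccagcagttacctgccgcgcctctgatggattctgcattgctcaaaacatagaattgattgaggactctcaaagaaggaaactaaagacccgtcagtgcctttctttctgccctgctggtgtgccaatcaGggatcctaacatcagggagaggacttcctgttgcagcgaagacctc

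Ly6c2: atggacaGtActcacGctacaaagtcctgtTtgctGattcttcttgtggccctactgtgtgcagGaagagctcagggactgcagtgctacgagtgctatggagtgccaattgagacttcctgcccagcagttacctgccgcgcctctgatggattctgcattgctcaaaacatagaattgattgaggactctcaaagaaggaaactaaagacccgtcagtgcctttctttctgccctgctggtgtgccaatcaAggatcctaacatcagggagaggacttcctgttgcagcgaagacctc

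Between the last 2 capitals of this stretch the copies were identical over 188 bases, the longest such run of the pair. Ly6a and Ly6i, both 405 bases long, form the next closest pair at 86.4% identity, and they are shown because Ly6i had the largest difference between the genotypes among the 4 of the 6 genes that were tested while Ly6a is the much more abundant copy. The stretch from base 101 to base 340 is printed, and capitals mark 44 of the 55 positions that differ.

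Ly6a: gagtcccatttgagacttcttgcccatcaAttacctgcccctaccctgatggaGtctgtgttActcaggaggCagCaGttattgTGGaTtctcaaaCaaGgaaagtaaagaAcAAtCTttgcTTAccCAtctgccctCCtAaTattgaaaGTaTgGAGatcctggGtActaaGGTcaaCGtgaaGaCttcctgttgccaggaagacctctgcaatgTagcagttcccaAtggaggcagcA

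Ly6i: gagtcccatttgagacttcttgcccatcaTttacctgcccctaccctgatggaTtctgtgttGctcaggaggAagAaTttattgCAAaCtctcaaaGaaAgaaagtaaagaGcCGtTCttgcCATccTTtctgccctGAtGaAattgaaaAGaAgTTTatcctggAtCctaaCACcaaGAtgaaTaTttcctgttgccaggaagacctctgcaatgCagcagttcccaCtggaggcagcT

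Most differences of this pair fall in the printed stretch, and the longest identical run was 80 bases. Ly6g was 83.2% identical to Ly6a, and Ly6e stood apart from the other 5, at 50.5% to 53.8% identity. Over the whole transcript, 36.7% of the 50-base words of Ly6c1 and 33.0% of those of Ly6c2 also occurred in a transcript of another gene, most of them in the other member of the pair. For Ly6a this share was 10.04%, for Ly6i 4.97% and for Ly6g 0.448%, and no 50-base word of Ly6e occurred elsewhere. At 100 bases the share was 15.3% for Ly6c1, 15.8% for Ly6c2 and 0% for the other 4. The counting showed the same division, since RSEM, which splits a read that fits several genes, gave Ly6e whole expected counts in all 4 libraries and Ly6a, Ly6c1, Ly6c2 and Ly6i fractional ones in every library.

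**Figure D1:**
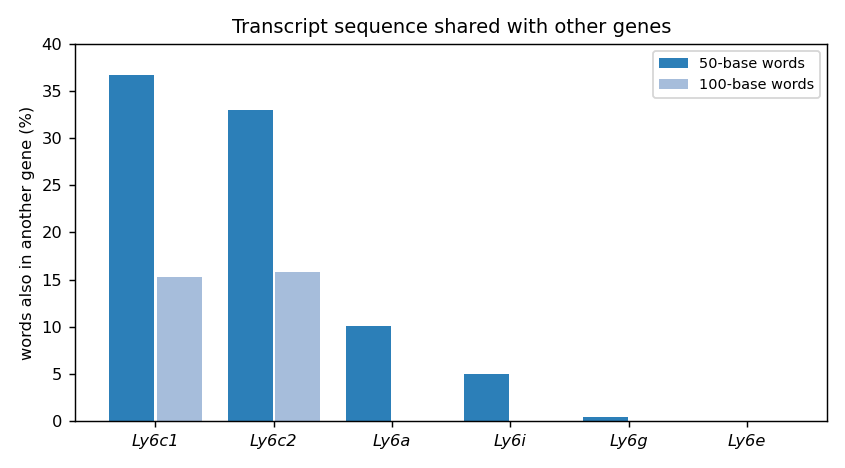
Share of the 50-base (dark bars) and 100-base (light bars) words of each Ly6 transcript that also occur in a transcript of another gene, in percent (y axis). Ly6c1 and Ly6c2 share 36.7% and 33.0% of their 50-base words with other genes, and Ly6e shares none.

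Ly6e, a GPI-anchored protein of many cell types that is known to bear on the entry of viruses, was the most abundant of the 6 per transcript length in 3 of 4 libraries. Its level was 1352 FPKM (fragments scaled to transcript length and library size) in WT replicate 1, 1120 FPKM in WT replicate 2, 1747 FPKM in deficient replicate 1 and 1495 FPKM in deficient replicate 2. Both deficient libraries were above both WT libraries. In FPKM, however, the replicates of each group lay farther apart than WT replicate 1 and deficient replicate 2. On the scale of normalized counts Ly6e averaged 2347 ± 385 CPM (SD, n = 2) in the WT and 3437 ± 340 CPM (SD, n = 2) in the deficient libraries, a log2 fold change of 0.55 with a standard error of 0.24. As these are bulk samples, more cells that carry a transcript and more transcript per cell cannot be told apart, here and below.

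Ly6a followed at 998 and 527 FPKM in WT replicates 1 and 2 and 2011 and 986 FPKM in deficient replicates 1 and 2. WT replicate 1 and deficient replicate 2 were at about the same FPKM, so the groups overlapped on this scale, while in CPM, after TMM scaling, deficient replicate 2 was 1.08 times WT replicate 1. Each group also had one library at about double the level of the other, with ratios of 1.97 within the WT and 2.01 within the deficient pair. The log2 fold change of Ly6a was 1.11 with a standard error of 0.39, and it fell to 0.52 without deficient replicate 1 and to 0.70 without WT replicate 2, while it was 1.70 without WT replicate 1. In deficient replicate 1 Ly6a exceeded Ly6e, with a FPKM ratio of Ly6e over Ly6a of 0.869, against 1.36, 2.13 and 1.52 in WT replicate 1, WT replicate 2 and deficient replicate 2.

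Ly6c2, the form of Ly6C that is characteristic of classical monocytes, followed Ly6e and Ly6a in every library. It stood at 228 and 221 FPKM in WT replicates 1 and 2, and at 686 and 324 FPKM in deficient replicates 1 and 2. The WT libraries were nearly equal, both deficient libraries lay above them, and deficient replicate 1 was 2.09 times deficient replicate 2 in CPM. The means were 183 ± 9.52 CPM (SD, n = 2) in the WT and 455 ± 227 CPM (SD, n = 2) in the deficient group, a log2 fold change of 1.31 with a standard error of 0.31. Without deficient replicate 1 it was 0.69 and without deficient replicate 2 it was 1.75, so that its size, though not its direction, depended on a single mouse.

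Ly6c1, the form of Ly6C best known from endothelium, was scarce in the same cells. Its level was 2.04 and 2.56 FPKM in the WT and 4.83 and 2.20 FPKM in the deficient libraries, from 6.81 to 16.6 expected counts per library. The groups overlapped, and the gene stayed below the filter on low counts. When low counts were kept, the fitted log2 fold change was 0.71, with a standard error of 0.71. Ly6c2 exceeded Ly6c1 by 112 and 86.3 times in FPKM in the WT and by 142 and 147 times in the deficient libraries, although the copies share so much of their sequence. How far reads of Ly6c2 contribute to the few counts given to Ly6c1 was not tested. The sum of both, to which the splitting of reads between them makes no difference, had a change of 1.31 on the log2 scale with a standard error of 0.31, as Ly6c2 alone.

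The promoters of this pair are shown because the transcripts differ so much more in level than in coding sequence. The sequences, of the first listed start site of each gene, are 300 bases long, most of them upstream of the start, and are from RefSeq on GRCm38.p6, chr15:75048788-75049087 for Ly6c1 and chr15:75111922-75112221 for Ly6c2, both on the minus strand. Capitals mark the letters GAGGAAGT, which hold the GGAA core that ETS family factors such as the myeloid factor PU.1 bind, and which were chosen after the sequences had been seen.

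Ly6c1: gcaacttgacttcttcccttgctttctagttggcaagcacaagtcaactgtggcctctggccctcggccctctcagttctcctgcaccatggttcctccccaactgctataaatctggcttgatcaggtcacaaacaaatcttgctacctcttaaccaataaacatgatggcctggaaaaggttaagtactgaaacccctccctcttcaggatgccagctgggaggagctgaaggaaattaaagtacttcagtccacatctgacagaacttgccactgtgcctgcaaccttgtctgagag

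Ly6c2: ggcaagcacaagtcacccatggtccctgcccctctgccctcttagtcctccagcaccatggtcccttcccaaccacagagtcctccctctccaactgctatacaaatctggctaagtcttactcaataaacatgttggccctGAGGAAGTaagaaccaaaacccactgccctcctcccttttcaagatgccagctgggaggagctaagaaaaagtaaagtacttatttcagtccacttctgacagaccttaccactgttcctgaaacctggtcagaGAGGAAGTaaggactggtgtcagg

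These promoters were 73.8% identical over an aligned stretch of 282 bases. The word occurred 2 times in that of Ly6c2 and was not found in that of Ly6c1, but the second listed start of Ly6c1, farther downstream, has 1 match. The printed window of Ly6c1 ends inside this match, so the word is missing there because of where the window stops. Of 32851 promoters of the same length, 3.20% held the word on either strand. In the listed promoters of Ly6g the word occurred 1 and 2 times. The interferon-response word of GAAA and GAAA with 2 bases between them (3.44% of promoters) was searched on both strands. So were the STAT6 word of TTC and GAA with 4 bases between them (6.95%) and TTCNNNGAA, with N for any base (8.30%). None of these further words was found in the listed promoters of Ly6c1, Ly6c2 and Ly6g. These matches are letters in a window, and binding was not measured here. Promoters for Ly6a, Ly6e and Ly6i were not analysed here.

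Ly6i, a GPI-anchored relative of Ly6a and Ly6C that is known from bone marrow-derived monocytes and macrophages, had the largest difference of the 4 tested among the 6. It stood at 13.8 and 10.2 FPKM in WT replicates 1 and 2 and at 86.3 and 52.6 FPKM in deficient replicates 1 and 2. Every deficient library was well above every WT library, with CPM ratios of single pairs from 4.16 to 9.50. The means were 9.87 ± 2.40 CPM (SD, n = 2) in the WT and 62.9 ± 20.9 CPM (SD, n = 2) in the deficient group, and the log2 fold change was 2.67 with a standard error of 0.30. Left-out libraries moved it between 2.29 and 2.98. Relative to its neighbours, Ly6i went from 0.0607 and 0.0462 of the FPKM of Ly6c2 in the WT libraries to 0.126 and 0.163 in the deficient libraries, and from 0.0139 and 0.0194 of that of Ly6a to 0.0429 and 0.0534. Its share of the summed FPKM of the family was 0.533% and 0.543% in the WT and 1.90% and 1.84% in the deficient libraries.

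Ly6g, the neutrophil antigen, was listed at 0 in both WT libraries and had 9.41 and 4.47 expected counts (2.11 and 0.95 FPKM) in deficient replicates 1 and 2. Against a floor of 3 counts over both WT libraries together, its normalized level in the deficient group was 4.72-fold higher. This floor allows for counting error in the WT only, and the counting error of the few deficient reads is not included. These counts were fractional and equalled 0.326% and 0.312% of the counts of Ly6c2, or 2.58% and 1.91% of those of Ly6i, in the same libraries. Whether they were reads of Ly6g or of a related gene was not tested.

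**Figure D2:**
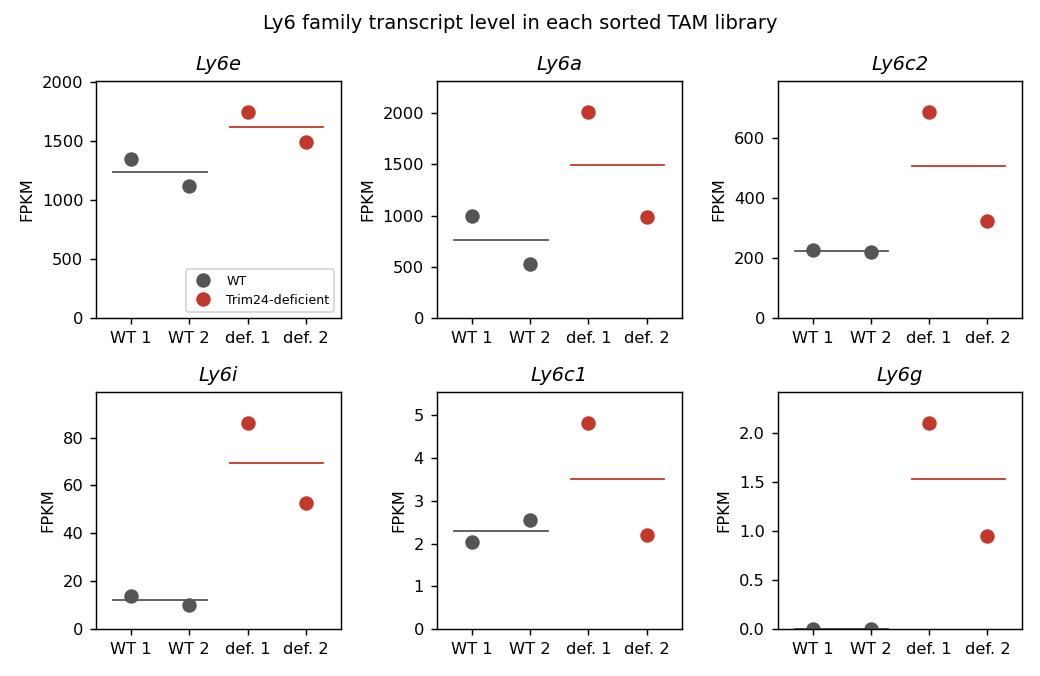
Transcript level in FPKM (y axis, from 0, scaled to each gene) of the 6 Ly6 genes in the 4 TAM libraries, with WT replicates in grey, deficient replicates (def.) in red and a line at each group mean. Both deficient libraries lie above both WT libraries for Ly6e, Ly6c2, Ly6i and Ly6g, and the groups overlap for Ly6a and Ly6c1.

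The order of levels per length in the WT libraries was Ly6e, Ly6a, Ly6c2, Ly6i, Ly6c1 and Ly6g. Of the neighbours in this order, Ly6e and Ly6a did not differ beyond the spread between libraries, since their ranges, which were separate in the WT, overlapped in the deficient group and the order was turned in deficient replicate 1. The steps from Ly6a to Ly6c2, from Ly6c2 to Ly6i and from Ly6i to Ly6c1 were larger than the spread, with no overlap of the FPKM ranges within either genotype, and Ly6c1 lay above Ly6g in every library at a level of few reads. Ly6e made up 52.1% and 59.6% of the summed FPKM of the family in WT replicates 1 and 2, and 38.5% and 52.3% in deficient replicates 1 and 2. The 6 genes summed took 0.384% and 0.292% of all expected counts in the WT and 0.608% and 0.426% in the deficient libraries, and the sum had a change of 0.75 on the log2 scale with a standard error of 0.27. All but Ly6e were between 1.61 and 2.53 times as high in deficient replicate 1 as in deficient replicate 2 in CPM, whereas Ly6e differed between these mice by 1.151 times.

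The filter on low counts left 4 of the 6 genes, and 1 of these, Ly6i, was called, which requires a fold change over 1.5 with an FDR under 0.05. Over all 11302 genes tested 0.372% were called in either direction, 0.292% as higher and 0.0796% as lower in the deficient libraries, and since the genes were listed with these results known, nothing is read from that count. At an unadjusted p under 0.05 edgeR had 1379 of the 11302 genes. DESeq2 called 156 genes in all, and limma on log2(FPKM + 1) called 23. Without deficient replicate 2, Ly6a, Ly6c2 and Ly6i were called, while without any one of the other libraries Ly6i was the sole gene of the 6 to be called. In CPM both deficient libraries were above both WT libraries for 4 of the 4 tested genes, against 21.5% of all genes tested, and 0 of the 4 lay below in both, against 23.0% of all genes. Their median log2 fold change was 1.21, against -0.0059 over all genes tested. The edgeR fit that scales to library totals instead of TMM moved the median of all genes to -0.15, and there Ly6e, Ly6a, Ly6c2 and Ly6i had log2 fold changes of 0.41, 0.97, 1.17 and 2.53.

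**Figure D3:**
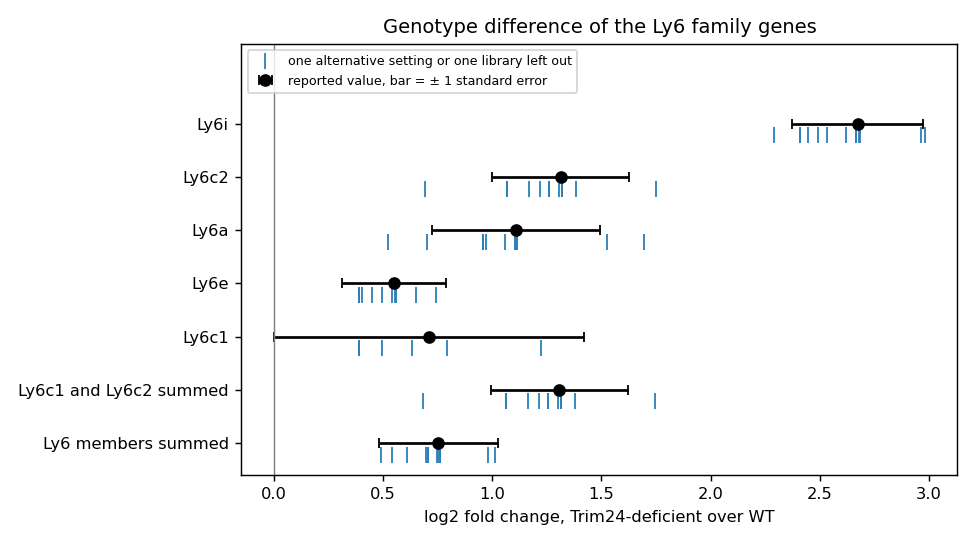
Log2 fold change of the deficient over the WT libraries (x axis) for 5 Ly6 genes and for the summed counts, with bars of 1 standard error, and with blue ticks for each alternative setting or left-out library. All values are above 0, from 2.29 to 2.98 for Ly6i and from 0.69 to 1.75 for Ly6c2 over the alternatives, and Ly6g is not shown because it is at 0 in the WT.

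Most other genes of the Ly6/uPAR superfamily, which share the three-finger fold, were little expressed. Of 43 listed, 21 had a value in any library and 6 passed the filter on low counts, and edgeR, DESeq2 and limma called none of them in either direction, with 2 at an unadjusted p under 0.05 in edgeR. The most abundant was Plaur, the receptor of the urokinase plasminogen activator, at 132 and 105 CPM in the WT and 144 and 216 CPM in the deficient libraries (log2 fold change 0.61, standard error 0.24). Cd59a, an inhibitor of the complement membrane attack complex, was at 8.54 to 19.1 CPM in the 4 libraries. Lypd1 (log2 fold change 0.31, standard error 0.37), Cd177, a surface protein of neutrophils (0.06, standard error 0.43), and Ly6m (-0.18, standard error 0.55) had changes within about 1 standard error of 0. Ly6f had 3 and 1 expected counts in WT replicates 1 and 2 and 18 and 13.7 in deficient replicates 1 and 2. With these counts it passed the filter through the deficient libraries, so nothing is read from its difference. Its summed counts, 4 against 32, gave a ratio of 8.16 with an exact 95% interval of 2.89 to 31.8. This interval holds counting error only and leaves out the spread between mice. The edgeR adjusted p of Ly6f was 0.172.

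Within 500 kb on either side of the cluster the annotation places 49 other genes, of which 14 had a value and 3 passed the filter, namely Ly6f, Ly6m and the zinc-finger gene Zfp41. None of the 3 was called by edgeR or DESeq2, with 1, Ly6f, at an unadjusted p under 0.05, and Zfp41 had a change of -0.09 on the log2 scale with a standard error of 0.43. The 28 genes that assemble and attach the GPI anchor were all expressed, and none of the 27 tested was called by edgeR, DESeq2 or limma, with 1 at an unadjusted p under 0.05 in edgeR. Their median log2 fold change was 0.19, with Pigs, a subunit of the transamidase that attaches the anchor, at 0.30 (standard error 0.20) and Pgap2, which remodels it, at 0.38 (standard error 0.27).

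Genes of the classical monocyte, the cell in which Ly6c2 is best known, were also compared. All 13 listed passed the filter, and in edgeR 2 rose while none fell, against 0.372% of all genes called in either direction. At an unadjusted p under 0.05 edgeR had 10, while DESeq2 called 7 and limma 0. For 10 of them both deficient libraries exceeded both WT libraries, against 21.5% of all genes tested. The called genes included Hp, the haemoglobin scavenger haptoglobin, at 6.87 and 7.71 CPM in the WT and 22.6 and 31.2 CPM in the deficient libraries (log2 fold change 1.88, standard error 0.29, adjusted p = 0.037). Ms4a4c, a tetraspan membrane protein, had a change of 1.07 on the log2 scale (standard error 0.21) and F13a1, the A subunit of coagulation factor XIII, 0.59 (standard error 0.46). The median over the list was 1.07. The summed level was 1432 and 1546 CPM in the WT libraries and 2550 and 3148 CPM in the deficient libraries, where replicate 2 was the higher. F13a1 alone was at 320 CPM in deficient replicate 1 and 1163 CPM in deficient replicate 2. Without F13a1, left out after its values were seen, the list summed to 918 and 1071 CPM in the WT. It then summed to 2230 and 1985 CPM in deficient replicates 1 and 2, the order of Ly6c2 in that group. In the WT the orders differed, since replicate 1 was the lower for this sum and slightly the higher for Ly6c2. Of the 9 genes of non-classical monocytes, which have low Ly6C, edgeR called none (6 at an unadjusted p under 0.05) and DESeq2 1. Their median log2 fold change was 0.64, with 6 of the 9 above 0. Both deficient libraries were above both WT libraries for 4 of the 9 and below for 2, against 21.5% and 23.0% of all genes tested. The fractalkine receptor Cx3cr1 was at 184 and 319 CPM in the WT and 138 and 121 CPM in the deficient libraries (log2 fold change -0.96, standard error 0.26, adjusted p = 0.199). The integrin gene Itgal had a change of 0.95 on the log2 scale (standard error 0.39).

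Ly6a, Ly6c2, Ly6e and Ly6i have been described as interferon-inducible, and both responses were therefore listed. Of the 20 genes of the response to interferon-gamma, 19 were tested, of which 2 rose and none fell in edgeR, against 0.372% of all genes called. At an unadjusted p under 0.05 edgeR had 17, while DESeq2 called 11 and limma 1. The 2 that edgeR called were Cd74, the invariant chain of MHC class II, and H2-Ab1, a class II beta chain. Cd74 was at 2918 and 2272 CPM in the WT and 11131 and 9585 CPM in the deficient libraries (log2 fold change 1.997, standard error 0.26, edgeR adjusted p = 0.013). H2-Ab1 was at 1048 and 718 CPM against 4400 and 3945 CPM (2.24, standard error 0.26, edgeR adjusted p = 0.009). The median of the list was 1.25, and both deficient libraries were above both WT libraries for 16 of the 19, against 21.5% of all genes. Of 24 genes of the type I interferon response, all tested, none was called by edgeR, DESeq2 or limma, with 12 at an unadjusted p under 0.05 in edgeR and a median of 0.45. The highest of these in level were Irf7, the transcription factor that amplifies the response, with a log2 fold change of 0.73 (standard error 0.22), and Ifit2, an antiviral RNA-binding protein, with 0.80 (standard error 0.25). The 4 called genes of all these lists are a number that depends on single mice, since it was 9 without WT replicate 1, 3 without WT replicate 2, 26 without deficient replicate 1 and 60 without deficient replicate 2. The 42 called genes of the whole comparison became 66, 25, 405 and 652 in the same order.

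**Figure D4:**
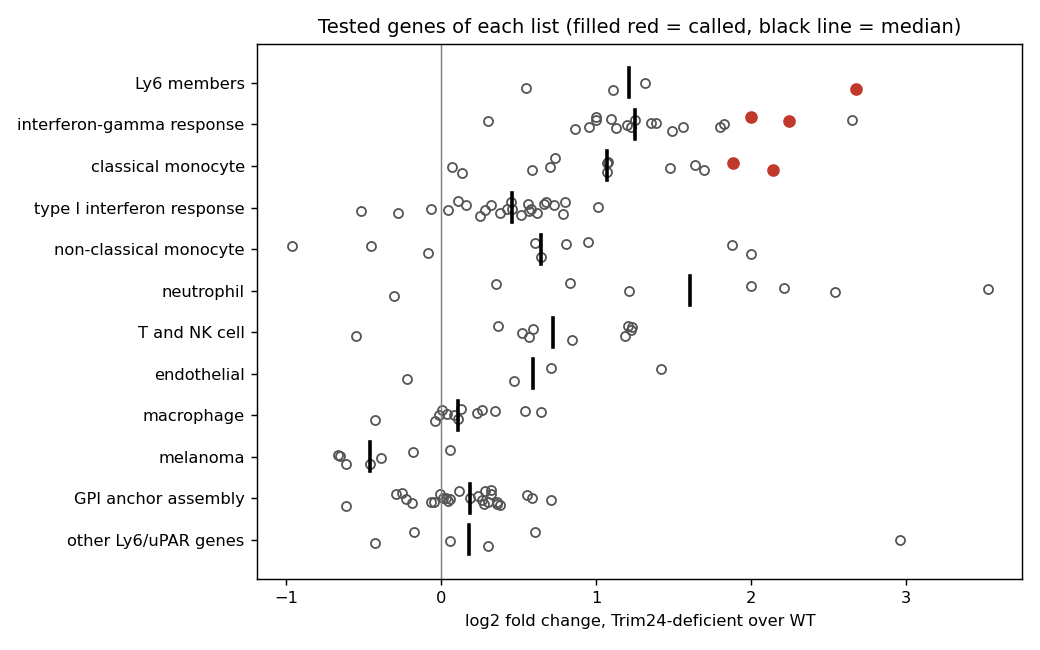
Log2 fold change of the deficient over the WT libraries (x axis) for each tested gene of the lists (rows), with called genes filled in red and a black line at the median of each list. The medians are 1.60 for the neutrophil list, 1.21 for the Ly6 genes, 1.25 for the interferon-gamma response, 1.07 for classical monocytes and 0.19 for GPI anchor assembly, against -0.0059 over all genes tested.

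Cell types other than macrophages also carry Ly6 proteins, and their markers were read in the same libraries. T and NK cells express Ly6a and Ly6c2, and the summed level of their 12 markers was 141 and 98.3 CPM in the WT libraries, 317 CPM in deficient replicate 1 and 111 CPM in deficient replicate 2. Deficient replicate 1 was thus the highest library for these markers and for the Ly6 genes. It was also the highest for the summed interferon-gamma, type I interferon and endothelial lists, so this rank was not particular to the T and NK markers. None of the 10 tested was called by edgeR, DESeq2 or limma (1 at an unadjusted p under 0.05 in edgeR), and the groups overlapped for all of them, with log2 fold changes of 1.23 (standard error 0.44) for Nkg7, a granule protein of cytotoxic lymphocytes, and 0.59 (standard error 0.38) for the T cell kinase gene Lck. The part of lymphocyte RNA in the levels of Ly6a and Ly6c2 was not tested.

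The 14 neutrophil markers summed to 194 and 237 CPM in the WT and 310 and 526 CPM in the deficient libraries, and edgeR called none of the 8 tested (6 at an unadjusted p under 0.05), limma none and DESeq2 4. Their median log2 fold change was 1.60, with 7 of the 8 above 0. For 6 of them both deficient libraries exceeded both WT libraries, against 21.5% of all genes tested. The median includes Lcn2, with a log2 fold change of 3.52 (standard error 0.78). Lcn2 had 5 and 4 expected counts in the WT and 18 and 87 in the deficient libraries, so it passed the filter through the deficient group. The highest in level were Csf3r, the receptor of granulocyte colony-stimulating factor, at 87.1 and 97.0 CPM in the WT against 170 and 157 CPM, and the chemokine receptor gene Cxcr2 at 63.5 and 83.9 CPM against 42.9 and 76.9 CPM. Mpo and Elane, the granule enzymes of immature neutrophils, were at 0 in all 4 libraries. Deficient replicate 2 had the higher neutrophil sum and the lower Ly6g count of its group, but these counts, 4.47 against 9.41, are few reads. The part of neutrophils in the reads assigned to Ly6g was not tested.

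Endothelial markers summed to 102 and 80.4 CPM in the WT and 156 and 112 CPM in the deficient libraries, mostly from Eng and Pecam1, which macrophages express too. The endothelial genes Tek and Cldn5 were at 0 in all libraries, while Kdr was at 2.83 to 9.17 CPM and Vwf at 1.88 to 4.32 CPM. The part of endothelial RNA in the levels of the Ly6 genes was not tested. Eng had a change of 0.47 on the log2 scale (standard error 0.23) and Pecam1 of 1.42 (standard error 0.44), and none of the 4 tested was called by edgeR, DESeq2 or limma (1 at an unadjusted p under 0.05 in edgeR). The 7 fibroblast markers summed to 3.23 to 6.58 CPM, with Col1a1 and Col3a1 the highest and Lum at 0 throughout, and none passed the filter. The B cell list was led by Cd79b at 43.1 to 53.7 CPM, while Cd79a was at most 1.67 CPM. Melanoma genes, from tumor cells or from what macrophages had taken up, summed to 813 and 773 CPM in the WT and 611 and 804 CPM in the deficient libraries, with a median of -0.46 and no gene of 7 called by edgeR, DESeq2 or limma (1 at an unadjusted p under 0.05 in edgeR). Tyr had a change of 0.06 on the log2 scale (standard error 0.22) and Tyrp1 of -0.65 (standard error 0.22). The macrophage markers had a median of 0.11 with no gene of 13 called by edgeR, DESeq2 or limma (2 at an unadjusted p under 0.05 in edgeR), and Apoe, the apolipoprotein that is high in many tissue macrophages, had a change of -0.04 on the log2 scale (standard error 0.39).

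The genes whose pattern over the 4 libraries was nearest to that of 2 Ly6 genes were found by the Euclidean distance of centred log2 CPM among 9130 genes whose log2 CPM averaged 3 or more. Nearest to Ly6e were Zdhhc13, a palmitoyltransferase gene (distance 0.02), Gla, which encodes the lysosomal alpha-galactosidase A, Kptn, Unc93b1, the chaperone of endosomal Toll-like receptors, and Tapbp, the tapasin of MHC class I loading (distance 0.07). Nearest to Ly6c2 were Gm12185, the formyl peptide receptor gene Fpr2, the histamine receptor gene Hrh2, Gbp5, an interferon-induced GTPase, and the chemokine gene Ccl5, at distances of 0.12 to 0.21. Other Ly6 genes were farther off. Ly6a lay at 0.63 and Ly6i at 1.42 from Ly6c2, and Ly6a and Ly6c2 each lay at 0.91 from Ly6e. These distances describe 4 libraries.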

How the data were processed

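RNA-seq libraries of TAMs from 2 WT mice and 2 mice labelled Trim24-deficient were grouped by their labels. For each library the authors deposited, per gene, the raw expected count that RSEM estimated from Bowtie alignments to GRCm38/mm10 (tool versions not given in the sources used here), and the FPKM value, which RSEM scales to gene length and library total. The deposited length column was not used. Genes that a table does not list were set to 0, and 16698 of 16739 matched a symbol.

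The expected counts, rounded to integers, went into edgeR 4.0.16 (R 4.3.3), which removed low genes (filterByExpr, leaving 11302), scaled by TMM and tested genotype by glmQLFit and glmQLFTest with Benjamini-Hochberg adjustment and no block, and genes were called where the fold change exceeded 1.5 at an FDR under 0.05. Standard errors were derived from the F statistic, as the log2 change over the root of F. Library totals put 3 counts at 0.58 to 0.67 CPM. Replicates are taken as separate mice, which the labels do not say in words. Coding sequences, words and positions are from GENCODE transcripts of GRCm38, one per gene, that of the lowest-numbered accession the deposited tables name, aligned with Biopython 1.88. Alternatives were DESeq2 1.42.0, FPKM on the log2 scale in limma 3.58.1 with pseudocounts of 1 and 0.1, other scalings and filters, the replicate block and leaving out each library. The scripts were tested on simulated data.

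The 6 Ly6 genes, the other lists and the rule for named genes were chosen with earlier results of these data known. Named are the 6 genes, Trim24, called genes of a list (the value of 1 of them is not reported here), the 2 genes of highest CPM in each list, tested Ly6/uPAR and neighbouring genes, and the 5 genes nearest in pattern to Ly6e and Ly6c2. Genes at 0 in all libraries, the fibroblast gene Lum, and Lcn2, Kdr and Vwf were named after their values were seen.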

Additional observations from a re-analysis of the deposited data

How the results depend on the processing

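The log2 fold changes of Ly6e, Ly6a, Ly6c2, Ly6i and Ly6c1 and of both sums were above 0 under each of the alternatives that gave a value, and each moved by less than the spread between replicates except for Ly6c2 and the sum of Ly6c1 and Ly6c2 without deficient replicate 1. Over the left-out libraries Ly6c2 ranged from 0.69 to 1.75 and the sum of Ly6c1 and Ly6c2 from 0.69 to 1.75. Ly6i was called under 12 of 13 alternatives, the exception being limma on log2(FPKM + 1) for all genes. Ly6c2 was also called by DESeq2. The 42 genes called between genotypes became 156 with DESeq2, 23 with limma on log2(FPKM + 1), 20 on log2(FPKM + 0.1), 0 on log2(FPKM + 1) for all genes (1636 at an unadjusted p under 0.05), and 25 to 652 with a library left out. The 4 called genes of the other lists became 23 with DESeq2, 8 without the filter on low counts, 1 with limma on log2(FPKM + 1) and on log2(FPKM + 0.1), 0 for all genes, and 3 to 60 with a library left out. Hp was called under 6 of 13 alternatives, Cd74 under 9 and H2-Ab1 under 12. The causes were not tested.

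Libraries of the same number deviated together only weakly (r = 0.165 across 11302 genes), and the labels give no pairing beyond the number. With the replicate number as a block 634 genes were called, 50 genes of the other lists and 1 neighbour of the cluster, Ly6f, in place of none, and Ly6a, Ly6c2 and Ly6i among the 6. Where a library was left out, the lone library of its group was assumed to vary like the other group. Ly6c1 and Ly6g rest on few reads, and no fitted change is given for Ly6g, which is at 0 in both WT libraries.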
